A study of Homo sapiens with 9 samples.

Results

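RNA sequencing was used to compare LNCaP prostate cancer cells in which UGT2B28 was targeted for knockdown with control LNCaP cells of the same series, across every gene with enough reads to test. The libraries were taken by their titles: 3 knockdown and 3 control libraries, 6 of the 9 in the series. The other 3 libraries, a rescue of the knockdown cells selected with G418, entered the filter on low counts and the estimate of spread, but not the contrast. LNCaP is an established human line grown from a lymph node metastasis of prostate cancer, and it carries an androgen receptor that responds to hormone. Both groups were kept in RPMI medium with fetal bovine serum, total RNA was taken from both, and both are given the same time, 24 h. The control genotype is labelled control, with NT (non-targeting) in the titles, and the knockdown titles read KD4, with no other knockdown in the series. Puromycin selection is named for knockdown cells. None is named for control cells, and whether they were selected is not stated, so a difference made by selection cannot be told apart from one made by the knockdown. The labels do not say whether the 3 libraries of a group came from separate cultures, so p-values rest on the spread among these libraries alone, and part of it may be technical.

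UGT2B28 belongs to the UDP-glucuronosyltransferases, enzymes of the endoplasmic reticulum that join glucuronic acid to small lipophilic molecules. Members of the UGT2B branch act on steroids, and in prostate cells they help to clear androgens after these have been reduced. LNCaP cells depend on the androgen receptor for much of their luminal gene program.

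The targeted gene and the identity of the cells were examined first. Replicates 1, 2 and 3 gave 25, 4 and 10 UGT2B28 counts in control and 17, 8 and 1 in knockdown. The groups overlapped, so the depth did not show a difference (−0.60 on the log2 scale, SE 0.62, edgeR adjusted p = 0.52), and without control replicate 1 the sign turned, to 0.16. The knockdown libraries are therefore named by their label. The paralogue UGT2B11† had 41.3, 50.4 and 43.8 CPM in control and 0.610, 0.673 and 0.966 CPM in knockdown, with no overlap. It was not alone: it lay in a run of 4 neighbouring genes called lower, with other UGT2B genes, at −6.21 to −1.97 on the log2 scale. Reads of such similar UGT2B genes may be split uncertainly between them. Gene counts were 21483664 to 26145310 per library. All 12 luminal prostate markers were detected: 9 were higher in knockdown and 0 lower, and their summed level was 4433 to 4684 CPM (read counts scaled to a library of 1000000 gene reads) in control and 9432 to 9867 CPM in knockdown. Most of the rise in that sum came from KLK3, KLK2 and TMPRSS2, at 1.39, 3.76 and 1.79 on the log2 scale. KRT8, EPCAM and STEAP2 changed little, at 0.07, 0.06 and 0.10, and were not among the 9. Markers of other cells were scarce. The immune markers PTPRC and CD3E and the neuroendocrine markers CHGB and INSM1 had no counts in any of the 6 libraries. Basal markers summed to 5.36 to 7.15 CPM in control and 10.9 to 14.8 in knockdown (2 of 6 higher, 1 lower), and fibroblast and smooth muscle markers to 67.8 to 76.5 and 46.7 to 57.2 CPM (1 of 7 higher, 2 lower), nearly all of it COL1A1. The 3 endothelial markers matched summed to 1.76 to 3.07 and 5.15 to 6.25 CPM (1 higher), and the 5 immune markers to 2.21 to 3.36 and 2.52 to 3.54 CPM (0 higher, 0 lower). The 7 neuroendocrine markers summed to 1096 to 1207 and 687 to 817 CPM (0 higher, 1 lower), which was nearly all ENO2, an enolase that epithelial cells also make. In bulk RNA, fewer cells of a type and less RNA per cell cannot be told apart.

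Of 18389 genes tested, 5899 passed the test (32.1%), 3030 of them higher in knockdown (16.5%) and 2869 lower (15.6%). Genes were tested with edgeR's quasi-likelihood test, and a gene was called when its adjusted p (Benjamini-Hochberg, over all tested genes) was under 0.05. Most differences were small. Among called genes, 1649 higher and 1463 lower ones differed by less than 1.5-fold. At the other end, 153 higher and 83 lower genes differed more than 8-fold, and 1445 (7.86%) at least 2-fold, 732 higher (3.98%) and 713 lower (3.88%). The control and knockdown libraries did not overlap for 7813 genes (42.5%). Among protein-coding genes 19.2% were called higher and 18.7% lower, and most gene lists below hold mainly such genes. The median log2 fold change over all tested genes was 0.01. Levels are CPM with library sizes scaled by TMM, given for replicates 1, 2 and 3 in that order, and means are given ± SD (n = 3). CPM is not divided by gene length and is compared only within a gene. SE is the absolute log2 fold change divided by the square root of the F value of the quasi-likelihood test. It is not a separate estimate of counting error, and may be too small where a group held almost no reads.

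**Figure D1:**
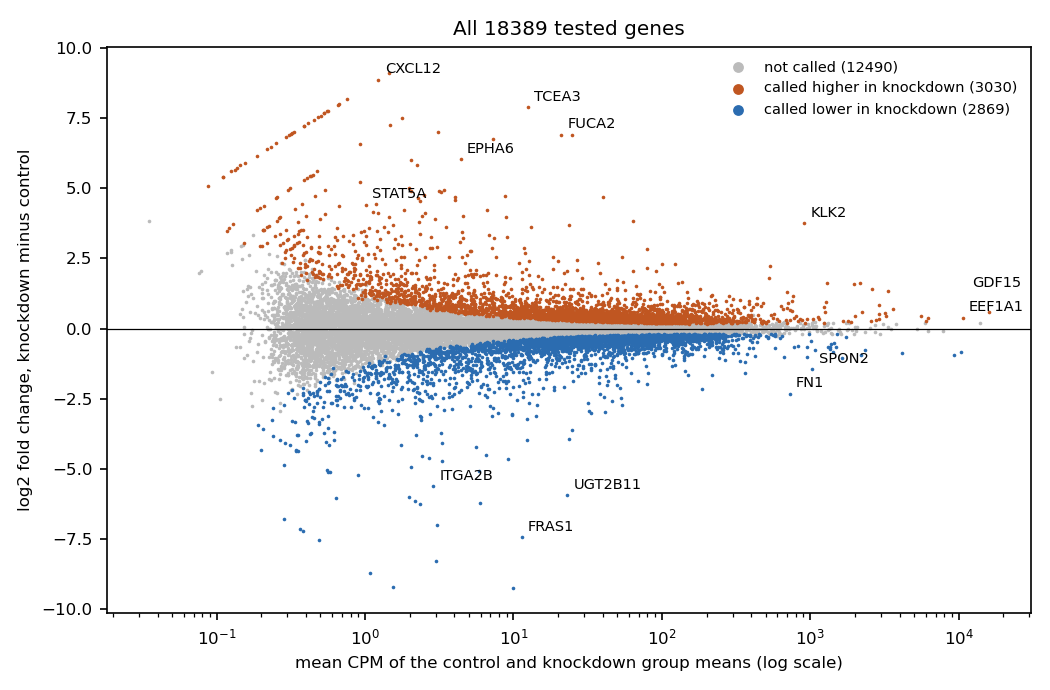
Each point is 1 of the 18389 tested genes: the x axis is the mean of the control and knockdown levels in CPM on a log scale, and the y axis is the log2 fold change of knockdown over control. Called genes, 3030 higher and 2869 lower, lie on both sides of 0, and the largest changes are among genes with low mean levels. Points on straight lines are genes without counts in one group, whose fitted fold change depends on a prior count.

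Among genes whose higher group averaged 5 CPM or more, the largest changes were close to a switch: genes with almost no reads in one group had a clear level in the other. TCEA3, a transcription elongation factor of the TFIIS family, had 0.225, 0 and 0.0454 CPM in control and 22.4, 28.3 and 23.8 CPM in knockdown. PSMD5, an assembly chaperone of the 26S proteasome, had 0.823, 0.186 and 0.863 CPM in control and 15.9, 18.3 and 16.9 CPM in knockdown, and KISS1R, the receptor for kisspeptin, had 0.262, 0.278 and 0.363 CPM in control and 8.47, 9.42 and 5.48 CPM in knockdown. Groups that do not overlap were a condition for naming these most raised and most lowered genes, so their separation is a description. The log2 fold changes were 7.89 (SE 0.29), 4.73 (SE 0.27) and 4.68 (SE 0.29). TENM1†, a teneurin of the cell surface, rose from 3.01 ± 0.773 to 77.4 ± 12.2 CPM and PGC, which encodes the protease precursor pepsinogen C, from 0.682 ± 0.189 to 12.7 ± 1.39 CPM. BHLHA15, a transcription factor of secretory cells, rose from 1.93 ± 0.616 to 24.3 ± 2.41 CPM, and RAB31, a GTPase of endosome traffic, from 1.68 ± 0.364 to 16.5 ± 2.34 CPM. The neuronal genes among the 25 most raised included CHRNA2, a nicotinic acetylcholine receptor subunit, up by 4.02 (SE 0.28) on the log2 scale and FEV, an ETS factor of serotonin neurons, at 4.85 (SE 0.29). A dagger marks, at its first mention, a named gene other than a luminal marker that shares exonic bases with another tested gene in the annotation used. The strand setting of the counting is not given in the sources used here, so reads of such a pair cannot be told apart and the values are uncertain.

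Genes nearly lost in knockdown were named by the same rule. FRAS1, a protein of the basement membrane, had 22.8, 22.5 and 22.7 CPM in control and 0.153, 0 and 0.230 CPM in knockdown. TUSC1 had 20.3, 19.1 and 13.4 CPM in control and 0.839, 0.210 and 1.06 CPM in knockdown, and SLITRK6, a neural transmembrane protein, had 10.9, 10.9 and 10.2 CPM in control and 0.419, 0.841 and 0.460 CPM in knockdown. Their log2 fold changes were −7.44 (SE 0.32), −4.64 (SE 0.30) and −4.20 (SE 0.30). DNAAF11, needed to assemble the dynein arms of motile cilia, fell from 11.4 ± 1.29 to 0.330 ± 0.0780 CPM, and the glutathione transferase GSTA1 from 45.7 ± 9.11 to 3.703 ± 0.364 CPM. TMSB4X, thymosin beta 4, which binds actin monomers, fell from 12.8 ± 1.48 to 1.47 ± 0.593 CPM. The cancer-testis antigen MAGEA4† fell from 44.5 ± 6.899 to 2.87 ± 0.466 CPM together with its antisense RNA MAGEA4-AS1†, from 6.27 ± 0.929 to 0.365 ± 0.0579 CPM, while CTAG2, another antigen of that kind, rose from 0.324 ± 0.271 to 7.71 ± 0.689 CPM. TCIM fell from 23.2 ± 3.67 to 1.44 ± 0.633 CPM and ABCA12, a lipid transporter of skin, from 22.3 ± 2.69 to 2.37 ± 1.33 CPM.

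Several genes had no counts at all in one group. For these the fold is a lower bound against a floor of 3 counts over the 3 libraries. LHX6, a LIM homeobox factor, had 218 counts over the control libraries and 0 over the knockdown libraries and was at least 74.2-fold lower in knockdown. PGR, the progesterone receptor, had 56 counts over the control libraries and 0 over the knockdown libraries and was at least 19.05-fold lower. In the other direction CXCL12, a chemokine, had 0 counts over the control libraries and 173 over the knockdown libraries, at least 56.5-fold higher. CMTM8, a MARVEL-domain protein, had 0 counts over the control libraries and 211 over the knockdown libraries, at least 68.9-fold higher. FZD2, a Wnt receptor, NTNG1, a netrin G ligand of axons, and SLC2A3, the glucose transporter GLUT3, were at least 25.2-, 22.5- and 14.7-fold higher. Where the lower group held 1 to 3 counts the ratio is given with its counting interval. The desmosomal cadherin DSC3 had 1392 counts over the control libraries and 2 over the knockdown libraries, a ratio of 710.3 (95% exact interval 196 to 5871). TGFBR2, the type II receptor for TGF-beta, had 1 count over the control libraries and 62 over the knockdown libraries, a ratio of 60.8 (95% exact interval 10.5 to 2438), and SOX11, a SOX factor, had 1 count over the control libraries and 59 over the knockdown libraries, a ratio of 57.8 (95% exact interval 9.98 to 2322).

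The 250 bases before the start site are shown for 4 genes with large changes, a pair of raised genes and a pair of lowered ones. In each pair 1 window is dense in CpG, the dinucleotide at which promoters are methylated, and 1 is poor in it. The sequences are from RefSeq (GRCh38.p14), written 5′ to 3′ on the strand of the gene, with every CG in capitals. The counts were made on hg19, so these windows serve as sequence and not as positions in the count tables. CXCL12 lies on the minus strand, with the window at chr10:44385098-44385347, and STAT5A on the plus strand, at chr17:42287189-42287438. ROR2 lies on the minus strand, at chr9:91950229-91950478, and ITGA2B on the minus strand, at chr17:44389650-44389899.
CXCL12: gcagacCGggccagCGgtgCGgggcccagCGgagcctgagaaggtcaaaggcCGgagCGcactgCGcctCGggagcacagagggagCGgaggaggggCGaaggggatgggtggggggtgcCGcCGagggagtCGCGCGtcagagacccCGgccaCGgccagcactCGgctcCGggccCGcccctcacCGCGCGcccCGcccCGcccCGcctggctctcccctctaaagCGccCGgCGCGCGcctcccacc
STAT5A: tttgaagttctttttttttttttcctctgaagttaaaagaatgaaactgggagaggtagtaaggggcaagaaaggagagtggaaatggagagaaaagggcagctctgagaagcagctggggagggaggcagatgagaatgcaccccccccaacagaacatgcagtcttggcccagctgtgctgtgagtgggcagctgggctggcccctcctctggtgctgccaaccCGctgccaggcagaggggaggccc
ROR2: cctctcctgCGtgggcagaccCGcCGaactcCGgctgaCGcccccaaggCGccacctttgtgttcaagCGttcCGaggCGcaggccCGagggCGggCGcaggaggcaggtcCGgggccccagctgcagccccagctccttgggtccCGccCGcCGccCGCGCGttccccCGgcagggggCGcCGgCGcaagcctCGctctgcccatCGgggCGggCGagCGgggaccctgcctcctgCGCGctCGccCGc
ITGA2B: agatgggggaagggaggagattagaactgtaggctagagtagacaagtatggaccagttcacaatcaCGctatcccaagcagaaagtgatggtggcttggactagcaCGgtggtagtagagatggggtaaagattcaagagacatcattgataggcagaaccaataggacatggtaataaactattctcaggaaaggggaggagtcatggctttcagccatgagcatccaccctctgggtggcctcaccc
The windows hold 31 CpGs for CXCL12 and 1 for STAT5A, both raised, and 32 for ROR2 and 2 for ITGA2B, both lowered. STAT5A, a signal transducer that carries prolactin and growth hormone signals, had 0, 0.0464 and 0.227 CPM in control and 2.52, 1.22 and 2.07 CPM in knockdown. ITGA2B, the integrin alpha chain of platelets, had 6.14, 6.26 and 4.59 CPM in control and 0.114, 0 and 0.230 CPM in knockdown, and ROR2, a receptor for noncanonical Wnt ligands, had 3.03, 4.36 and 5.404 CPM in control and 0.534, 0.252 and 0.644 CPM in knockdown. The groups did not overlap in any of these.

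**Figure D2:**
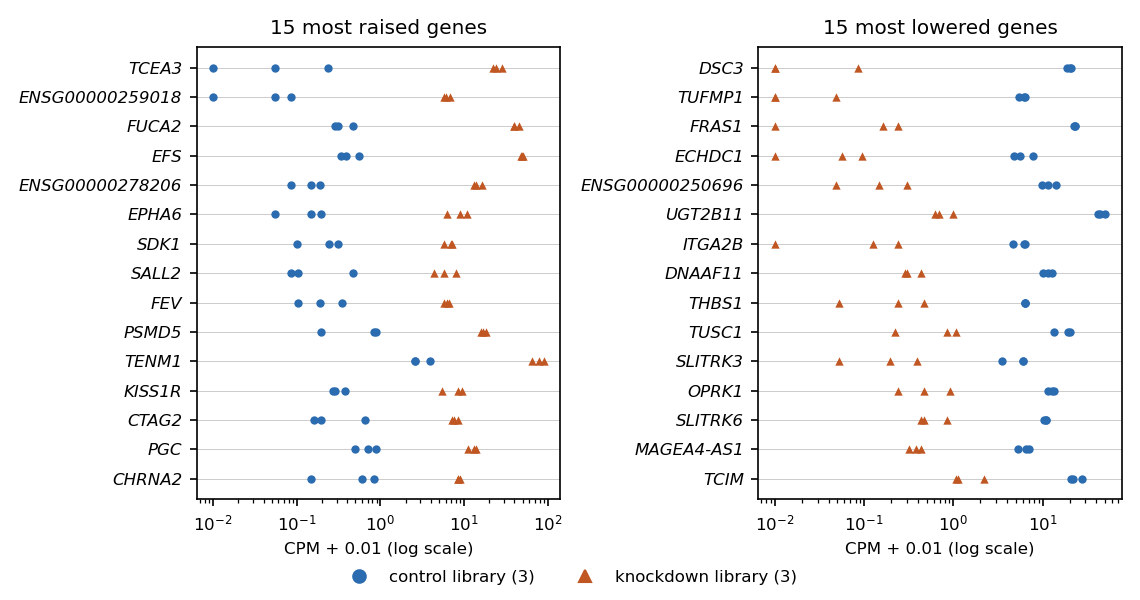
CPM plus 0.01 on a log scale for the 15 most raised (left) and 15 most lowered genes (right) among called genes with an entry in the symbol table, whose higher group averaged 5 CPM or more and whose groups do not overlap, 1 mark per library, circles for 3 control and triangles for 3 knockdown libraries. The gap in every row is part of how the genes were chosen, and their log2 fold changes run from 4.02 to 7.89 for raised genes and from −3.98 to −9.22 for lowered ones.

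The largest gains in CPM, a scale that favours long and highly expressed genes, were ranked next. GDF15, a stress-induced cytokine of the TGF-beta family, had 12229.9, 12713 and 12865 CPM in control and 17459, 21178 and 18949 CPM in knockdown. EEF1A1, the elongation factor that brings aminoacyl-tRNA to the ribosome, had 8220.4, 9609.8 and 9728 CPM in control and 11791, 13063 and 11298 CPM in knockdown. The groups did not overlap for either gene, and the log2 fold changes were 0.61 (SE 0.09) and 0.39 (SE 0.09). MKNK2, a kinase that phosphorylates the cap-binding protein eIF4E, rose from 979 ± 2.35 to 2946 ± 145 CPM and the metallothionein MT2A from 2073 ± 136 to 3744 ± 675 CPM. The glycolytic enzymes GPI and ENO1† rose from 4672 ± 155 to 6396 ± 434 CPM and from 5406 ± 82.9 to 7046 ± 383 CPM. Of the 10 largest losses, 8 were RNAs of the mitochondrial genome, led by the ribosomal RNA MT-RNR2, from 13302 ± 1049 to 7417 ± 799.9 CPM. The other 2 encode secreted matrix proteins. SPON2, a spondin, had 1432, 1569 and 1536 CPM in control and 501, 577 and 589 CPM in knockdown, and FN1, fibronectin, fell by 2.32 on the log2 scale (SE 0.10).

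Genes of the matrix were more often lower than higher. Of 22 collagen genes tested, 13 fell and 3 rose (median log2 fold change −0.40, or −0.78 with a minimum count of 50, which leaves out thinly covered members). COL6A2, a chain of the pericellular collagen VI, had 215, 186 and 169 CPM in control and 90.3, 90.5 and 96.1 CPM in knockdown, with no overlap. The fibril collagens COL5A1 and COL5A2 fell, the first from 15.1 ± 2.099 to 6.07 ± 1.51 CPM and the other from 3.77 ± 0.907 to 0.583 ± 0.287 CPM. Of 19 laminin and basement membrane genes, 7 fell and 1 rose. Their median log2 fold change was −0.14, but 0.01 without control replicate 3 and −0.56 with a minimum count of 50. PXDN, a peroxidase that crosslinks collagen IV, fell from 85.3 ± 6.61 to 19.7 ± 2.97 CPM, and the heparan sulfate proteoglycan AGRN from 188 ± 14.1 to 105 ± 3.95 CPM. Among 35 proteoglycan genes 14 fell (40%) and 6 rose (17.1%, near the 16.5% of all tested genes). The syndecan SDC1 fell by 1.20 (SE 0.10), while HS6ST2, a heparan 6-O-sulfotransferase, rose by 3.97 (SE 0.48) on the log2 scale. Of 40 metalloprotease and inhibitor genes 10 rose (25%) and 14 fell (35%), both above the shares over all tested genes. MME†, the membrane peptidase neprilysin, rose from 186 ± 8.83 to 882 ± 29.8 CPM. ADAMTS1, a secreted protease that cuts proteoglycans, fell from 305 ± 16.5 to 68.02 ± 7.26 CPM.

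Desmosomes, which anchor keratin filaments at cell contacts, had 5 of 13 tested genes higher and 7 lower (median log2 fold change −0.22, or −0.47 with a minimum count of 50 or with the 6 control and knockdown libraries alone). The cadherin DSG2† had 149.7, 145 and 136 CPM in control and 258, 233 and 249.6 CPM in knockdown, with no overlap, and rose by 0.78 (SE 0.08). The plaque protein DSP, desmoplakin, had 1869.8, 1540.3 and 1654 CPM in control and 1330.04, 1135 and 1095 CPM in knockdown and fell by 0.51 (SE 0.09). Among 56 genes with symbols of cadherins and protocadherins 10 rose (17.9%, near the 16.5% of all tested genes) and 16 fell (28.6%). The 10 include an antisense RNA, and the 56 also hold a pseudogene. Without knockdown replicate 1, 17 in all were called. The giant cadherin FAT1 rose from 1.45 ± 0.355 to 13.4 ± 2.68 CPM and CDH26 from 3.26 ± 0.677 to 20.8 ± 1.06 CPM. Of 16 integrins 4 rose and 3 fell (25% and 18.75%, against 16.5% and 15.6% of all tested genes). The share that fell was that of protein-coding genes, 18.7%. ITGB4, the beta chain of hemidesmosomes, fell from 19.3 ± 4.09 to 4.01 ± 1.18 CPM. Of 29 tight junction genes 4 rose and 4 fell (13.8% each way, below the shares over all tested genes), and the risers included the claudins CLDN3, from 93.2 ± 4.299 to 167 ± 8.996 CPM, and CLDN4, from 459 ± 34.6 to 807 ± 50.7 CPM.

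Guidance cues and their receptors fell more often than they rose. Semaphorins steer axons and vessels through plexin receptors, and of 24 such genes 10 fell and 2 rose. SEMA3C had 83.7, 73.8 and 78.1 CPM in control and 13.5, 12.9 and 13.5 CPM in knockdown, with no overlap, and the receptor PLXND1 fell from 12.8 ± 4.79 to 1.77 ± 0.639 CPM. Of 17 ephrin genes 4 rose (23.5%) and 7 fell (41.2%), against 16.5% and 15.6% of all tested genes. EPHA6, an ephrin-A receptor, rose by 6.03 (SE 0.36), while the ligand EFNB2† fell from 54.9 ± 3.87 to 8.76 ± 3.06 CPM. ROBO1, a receptor for slit proteins, had 0.524, 0.789 and 0.272 CPM in control and 7.47, 5.97 and 5.89 CPM in knockdown, with no overlap, and rose by 3.60 (SE 0.30).

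Developmental signalling genes fell more often than they rose. Of 30 genes for Wnt ligands, receptors and inhibitors, 14 fell and 3 rose (median −0.47). The coreceptor LRP5 fell from 97.1 ± 18.6 to 59.8 ± 3.97 CPM and FZD4† from 16.3 ± 2.55 to 5.59 ± 1.61 CPM. Of 12 Wnt response genes 5 fell (41.7%) and 2 rose (16.7%, near the 16.5% of all tested genes). LEF1, a nuclear partner of beta-catenin, fell by 2.44 (SE 0.40) and the feedback inhibitor NKD2 by 1.45 (SE 0.18), but CCND1†, cyclin D1, rose by 0.58 (SE 0.07). In the Hedgehog pathway 5 of 11 fell and 0 rose. The signal transducer SMO† had 17.6, 18.8 and 18.4 CPM in control and 5.72, 7.19 and 5.2001 CPM in knockdown, and the transcription factor GLI3 fell from 6.497 ± 2.18 to 1.55 ± 0.251 CPM. Of 9 FGF ligand and receptor genes 6 fell and 2 rose, and 5 in all were called without control replicate 1 or without knockdown replicate 1. FGFRL1, a receptor without a kinase domain, had 237, 228 and 214 CPM in control and 66.998, 71.3 and 78.2 CPM in knockdown, and FGFR1† fell from 29.9 ± 1.02 to 12.8 ± 0.570 CPM. Notch genes gave 4 higher (16%, near the 16.5% of all tested genes) and 11 lower (44%) of 25. The receptor NOTCH3 fell by 0.89 (SE 0.09) and the ligand JAG1† by 1.21 (SE 0.17).

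Single genes of other signalling systems are given with their partners. CXCL12 signals through CXCR4 and is taken up by the scavenger receptor ACKR3. CXCR4 had 19.7, 18.7 and 22.9 CPM in control and 58.2, 73.03 and 54.03 CPM in knockdown and ACKR3 had 54.7, 58.9 and 64.9 CPM in control and 7.25, 5.09 and 9.99 CPM in knockdown. Both were without overlap, CXCR4 higher by 1.60 (SE 0.11) and ACKR3 lower at −3.00 (SE 0.21). In the insulin system the receptor INSR fell from 112 ± 6.91 to 44.6 ± 5.58 CPM and its substrate IRS2 from 42.8 ± 6.95 to 14.3 ± 1.99 CPM, while the related receptor IGF1R rose from 23.05 ± 2.39 to 36.7 ± 6.46 CPM and the substrate IRS1 from 2.47 ± 0.932 to 5.48 ± 0.149 CPM. SOCS2†, a feedback inhibitor of JAK and STAT signalling, rose from 9.46 ± 2.07 to 18.4 ± 1.72 CPM. The cytokine receptor chains OSMR† and LIFR†, which both pair with gp130, went opposite ways, at 1.64 (SE 0.24) and −1.13 (SE 0.08). Of 45 genes with symbols of orphan and adhesion G protein-coupled receptors 13 fell and 1 rose. Of 51 with symbols of receptors with known ligands 16 fell (31.4%) and 7 rose (13.7%, below the 16.5% of all tested genes). Membership was by symbol, so these lists take in some genes that are not such receptors, and share a member with the Wnt genes above. The prostaglandin E2 receptor PTGER4 rose from 0.303 ± 0.127 to 4.34 ± 0.744 CPM.

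Among transcription factors the HOX clusters held more higher than lower genes. These homeobox genes set position along the body axis and lie in dense clusters. Of 16 tested, 12 rose and 2 fell (median log2 fold change 1.495). With a minimum count of 50, which leaves out thinly covered members, 9 in all were called (median 0.93), and with the filter on the 6 control and knockdown libraries the median was 0.99. Most of those that rose were at low levels. HOXC12 had 0.524, 0.0928 and 0.454 CPM in control and 6.75, 4.37 and 5.71 CPM in knockdown, with no overlap, and HOXB6† had 0.299, 0.139 and 0.772 CPM in control and 2.82, 3.37 and 3.31 CPM in knockdown. HOXB13, the prostate factor and by far the deepest covered, had 251, 232 and 211 CPM in control and 312, 305 and 328 CPM in knockdown and rose by 0.45 (SE 0.07). The 2 that fell, named after their values were seen, were HOXC13†, from 16.03 ± 1.84 to 10.96 ± 1.04 CPM, and HOXC9†, from 6.79 ± 0.483 to 4.56 ± 0.756 CPM. HOXC9 lost its call when any of 4 single libraries was left out (edgeR adjusted p = 0.053 to 0.10).

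**Figure D3:**
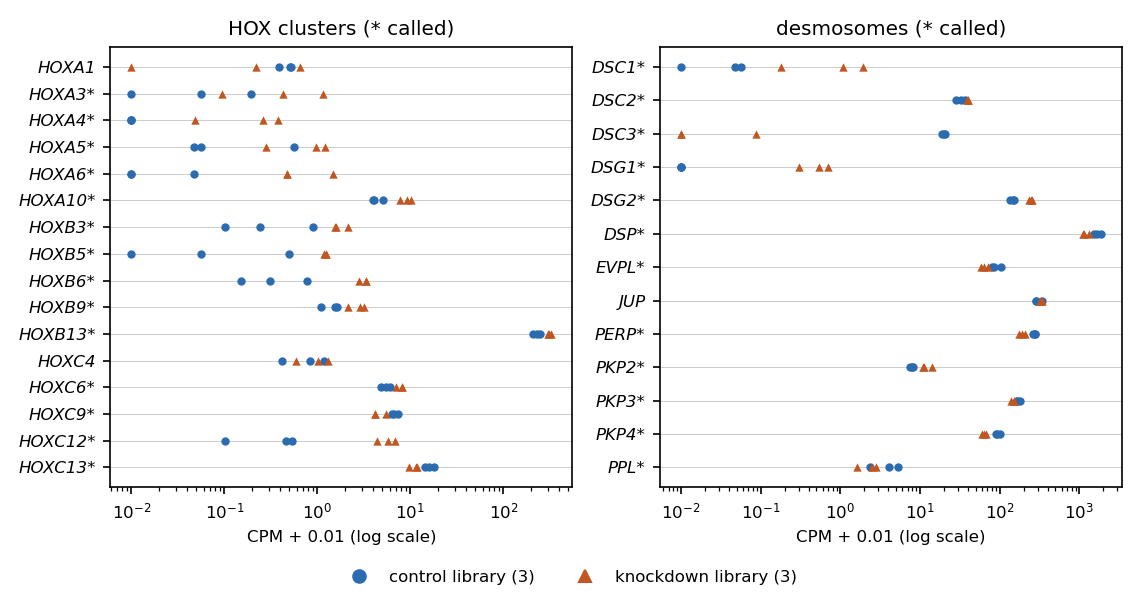
CPM plus 0.01 on a log scale in each library for the 16 tested HOX genes (left) and the 13 tested desmosome genes (right), circles for control and triangles for knockdown, with a star at genes that were called. For HOXC12, HOXB5, HOXB6 and HOXA10 every triangle lies to the right of every circle, for HOXC9 and HOXC13 to the left, and DSC3 has the widest gap of the desmosome genes.

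Other transcription factor families moved less uniformly. Forkhead genes gave 2 higher and 10 lower of 22, and genes with homeobox symbols outside the clusters 8 (12.9%) and 15 (24.2%) of 62. The 8 include a gene taken by its symbol that is not a homeobox gene. The homeobox factor SIX4 fell from 60.6 ± 2.37 to 34.9 ± 3.62 CPM. Of the 9 SOX genes tested, 2 rose (22.2%) and 3 fell (33.3%), against 16.5% and 15.6% of all tested genes. SOX12 rose from 114 ± 13.2 to 174 ± 5.71 CPM and SOX11 is given above, while SOX9 fell by 2.44 (SE 0.42) and SOX4†, the most deeply covered, from 389 ± 23.3 to 214 ± 11.2 CPM. AHR†, the receptor for dioxin and tryptophan products, fell from 13.4 ± 1.202 to 4.34 ± 0.374 CPM, though its target CYP1A1 rose by 1.29 (SE 0.35). Circadian clock genes gave 9 higher and 4 lower of 20. PER1, a repressor of the clock, had 210.1, 167 and 208 CPM in control and 356, 418 and 446 CPM in knockdown, and CIART, another repressor, rose from 5.37 ± 1.497 to 20.04 ± 3.99 CPM. Of 60 lysine demethylases and methyltransferases 20 fell and 7 rose, and of 17 histone deacetylases and sirtuins 4 rose and 0 fell. Of 469 ZNF genes 57 rose and 61 fell (12.2% and 13.01%, below the shares over all tested genes).

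In several families of plasma membrane transporters more genes fell than rose. Ion, bicarbonate and phosphate carriers fell in 14 and rose in 2 of 36 genes. SLC12A2, the sodium, potassium and chloride cotransporter NKCC1, had 48.8, 50.7 and 50.9 CPM in control and 22.9, 18.5 and 21.997 CPM in knockdown, and the sodium and proton exchanger SLC9A7 fell from 118 ± 12.01 to 59.3 ± 6.55 CPM. The bicarbonate carrier SLC4A4 rose, from 13.8 ± 1.8000 to 36.5 ± 6.88 CPM. Organic ion and nucleoside carriers gave 3 higher and 14 lower of 51, and TRP, chloride and water channels 2 and 13 of 59. CACNA1H†, a T-type calcium channel, fell from 108 ± 12.4 to 29.5 ± 0.822 CPM and the potassium channel KCNH2 from 45.8 ± 2.18 to 15.3 ± 1.91 CPM. ATP1B1†, the beta subunit of the sodium pump, rose from 23.02 ± 0.709 to 76.8 ± 6.98 CPM. The large neutral amino acid transporter SLC43A1 rose from 24.1 ± 0.479 to 63.4 ± 5.698 CPM, and the glutamine carrier SLC38A2 fell from 173 ± 13.3 to 105 ± 4.81 CPM.

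Among motor and actin-binding genes, too, more fell than rose. Of 90 myosins and actin-binding proteins 31 fell (34.4%) and 17 rose (18.9%, near the 16.5% of all tested genes). The bundling proteins LCP1 and PLS3 rose, by 1.25 (SE 0.10) and 1.12 (SE 0.08), and the nuclear and cytoplasmic motor MYO1C from 131 ± 7.88 to 297 ± 16.1 CPM. KIF5C, a kinesin heavy chain of neurons, fell from 74.6 ± 4.12 to 22.3 ± 2.25 CPM. Intermediate filament genes outside the keratins gave 4 higher (44.4%) and 3 lower (33.3%) of 9. The neuronal filaments NEFL and PRPH† rose from 0.660 ± 0.109 to 4.84 ± 0.510 CPM and from 15.8 ± 2.65 to 91.5 ± 4.76 CPM, and VIM†, vimentin, fell by 2.92 (SE 0.13). Rab GTPases, which direct vesicles, rose in 14 and fell in 3 of 56. RAB27A† and RAB27B†, which serve regulated secretion, went opposite ways, at 1.26 (SE 0.22) and −1.80 (SE 0.19).

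Several metabolic families held more higher than lower genes. Long-chain acyl-CoA synthetases and thioesterases, which attach and remove coenzyme A on fatty acids, rose in 11 and fell in 3 of 23 genes (median 0.43). The synthetase ACSL3 had 79.99, 87.2 and 83.8 CPM in control and 159, 143 and 147 CPM in knockdown, and the acetyl-CoA synthetase ACSS2 rose from 58.8 ± 2.37 to 94.9 ± 1.71 CPM. Citrate cycle and pyruvate entry genes rose in 12 and fell in 2 of 35. MPC2†, a subunit of the mitochondrial pyruvate carrier, had 119, 161 and 175 CPM in control and 287, 319.99 and 314 CPM in knockdown. In fatty acid oxidation 11 of 37 rose (29.7%) and 6 fell (16.2%, near the 15.6% of all tested genes). ACOX2, a peroxisomal oxidase of branched chains, rose from 0.867 ± 0.263 to 8.26 ± 1.61 CPM, ACADM†, the medium-chain acyl-CoA dehydrogenase, from 23.8 ± 1.84 to 54.99 ± 5.74 CPM, and ECHDC1, an ethylmalonyl-CoA decarboxylase, had 419 counts over the control libraries and 3 over the knockdown libraries, a ratio of 143 (95% exact interval 48.4 to 694).

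Among single enzymes that act on small molecules, RDH10, which oxidises retinol, had 15.8, 19.3 and 17.03 CPM in control and 2.36, 1.01 and 2.95 CPM in knockdown, and DHRS3, which reduces retinal, had 66.9, 66.4 and 72.2 CPM in control and 12.5, 11.8 and 13.2 CPM in knockdown. ALDH1A3†, which makes retinoic acid, rose from 6.897 ± 0.540 to 30.2 ± 0.553 CPM, and CYP26A1, which degrades it, rose by 3.46 (SE 0.57). HPGD, which inactivates prostaglandins, rose from 0.186 ± 0.163 to 2.51 ± 0.499 CPM. MAOA, a monoamine oxidase, rose from 95.6 ± 4.75 to 203 ± 8.91 CPM. In glutathione metabolism GGT1†, a gamma-glutamyltransferase, rose from 6.29 ± 1.12 to 23.1 ± 2.64 CPM. The sulfotransferases SULT1A1 and SULT2B1, which conjugate phenols and sterols, fell by 0.55 (SE 0.10) and 0.71 (SE 0.10).

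Protein synthesis and turnover showed many small increases. Of 48 proteasome genes 25 rose and 1 fell (median 0.26), and 16 in all were called without knockdown replicate 2. Apart from PSMD5 these were small, as in PSMD8, which had 162, 182 and 199.9 CPM in control and 228, 284 and 263 CPM in knockdown, and PSMD12, from 48.4 ± 3.36 to 66.6 ± 6.42 CPM. The gene that fell was PSME4†, an alternative activator, from 81.9 ± 7.26 to 57.6 ± 7.12 CPM. Mitochondrial ribosomal proteins, which are encoded in the nucleus, rose in 24 and fell in 1 of 78, and 13 in all were called without control replicate 1 and 14 without knockdown replicate 2. MRPL10 rose by 0.51 (SE 0.08). Aminoacyl-tRNA synthetases rose in 11 and fell in 3 of 35, with 9 in all called without control replicate 3 and 8 without knockdown replicate 3. Translation factors rose in 22 and fell in 9 of 79. EIF4EBP1, an inhibitor of cap-dependent initiation, had 114, 119 and 127 CPM in control and 204, 217 and 219 CPM in knockdown, and the neuronal and muscle elongation factor EEF1A2 fell from 993 ± 52.1 to 648 ± 46.05 CPM. Heat shock and folding proteins rose in 26 and fell in 9 of 102. HSP90AA1†, the inducible cytosolic HSP90, rose from 521 ± 30.9 to 864 ± 32.3 CPM, and DNAJC15, a mitochondrial J protein, from 0.766 ± 0.359 to 8.198 ± 0.968 CPM.

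Of 97 splicing factors of the SR and hnRNP kinds and other RNA-binding proteins, 24 rose (24.7%) and 12 fell (12.4%, below the 15.6% of all tested genes). SRSF3, a splicing factor, had 108, 124 and 129 CPM in control and 212, 250.2 and 224 CPM in knockdown, with no overlap. Host genes of small nucleolar RNAs rose in 9 and fell in 0 of 28 (median 0.30, or 0.47 without control replicate 2), with SNHG1 from 219.5 ± 28.3 to 449.97 ± 73.4 CPM and SNHG3† from 42.8 ± 2.57 to 97.1 ± 10.8 CPM. Antisense RNAs named for their partner rose in 105 and fell in 55 of 815 (12.9% and 6.75%, below the 16.5% and 15.6% of all tested genes). Some of the most changed followed their partner. MME-AS1† rose from 6.25 ± 1.45 to 33.5 ± 1.08 CPM and ALDH1A3-AS1† from 3.598 ± 0.216 to 18.2 ± 0.754 CPM, as MME and ALDH1A3 did, and VIM-AS1† fell from 25.3 ± 1.11 to 2.98 ± 0.818 CPM, as VIM did. By annotated class, 37.97% of 13109 protein-coding genes were called, against 17.3% of 2260 antisense and 18.97% of 917 long intergenic genes, and the median of mean CPM was 24.8, 2.59 and 1.103 in these classes, so the RNA classes were covered by fewer reads.

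**Figure D4:**
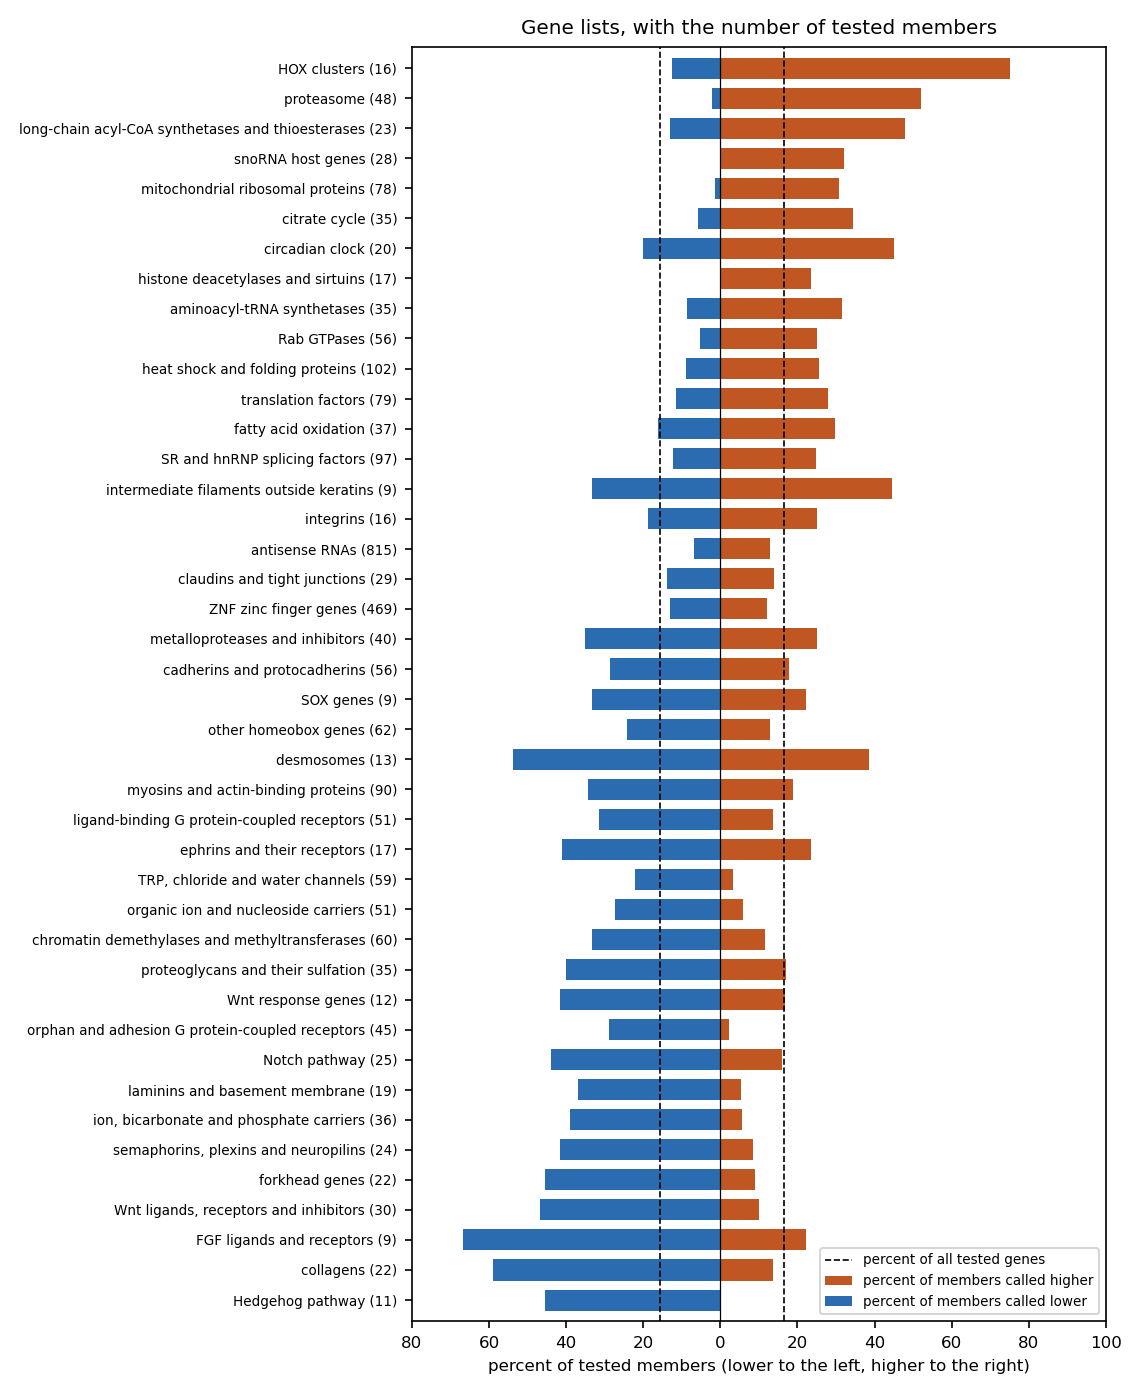
Percent of the tested members of each gene list called higher (right of 0) or lower (left of 0) in knockdown, with the number of tested members after each name and dashed lines at the share of all tested genes, 16.5% higher and 15.6% lower. HOX clusters, proteasome and acyl-CoA genes reach farthest to the right, and FGF, collagen and desmosome genes farthest to the left.

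Chromosomes 18 and 21 departed from the others in the share of genes called, a count looked at after other results were known. On chromosome 18, 81 of 288 tested genes rose (28.1%) and 30 fell (10.4%), with a median log2 fold change of 0.20. On chromosome 21, 12 of 205 rose (5.85%) and 55 fell (26.8%), with a median of −0.17. The medians of the other chromosomes lay between −0.06 and 0.07. Within each group of 3 libraries the shift was present in each knockdown library: the median over chromosome 18 genes, against the control mean, was 0.12 to 0.22, and over chromosome 21 genes −0.18 to −0.08. Protein-coding genes alone gave 0.17 and −0.19. Genome copy number was not measured here.

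**Figure D5:**
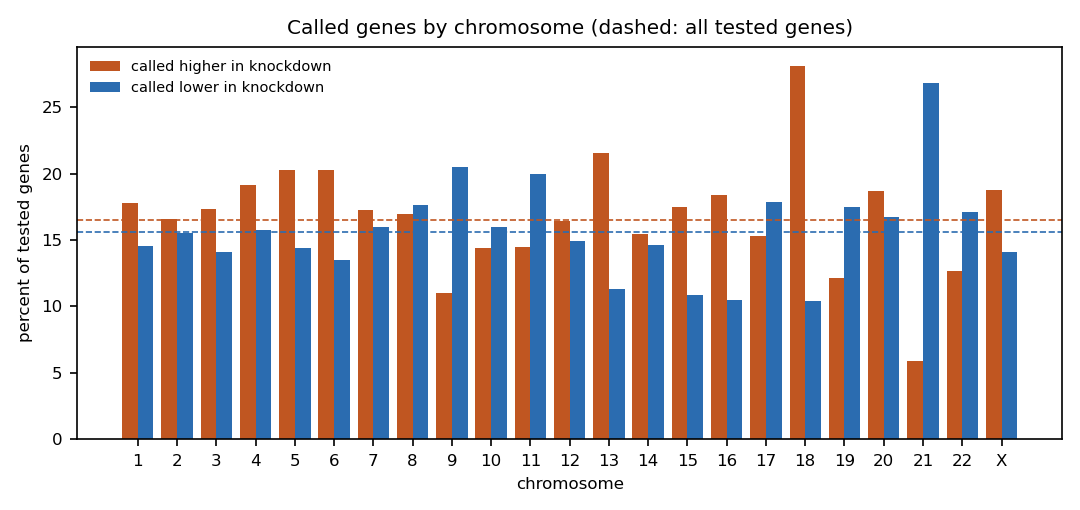
Percent of tested genes called higher (left bar) and lower (right bar) in knockdown for each chromosome, with dashed lines at the share over all tested genes. The bar for higher genes is tallest on chromosome 18, at 28.1%, and the bar for lower genes on chromosome 21, at 26.8%.

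Called genes also lay next to each other along the genome. The next tested gene was higher for 29.3% of higher genes, against 16.6% of all genes, and lower for 10.9%. For lower genes the next was lower in 24.2%, against 15.6% of all, and higher in 9.904%. With protein-coding genes only, the next was higher for 27.8% of higher genes, against 19.2% of such genes. For lower protein-coding genes it was lower in 24.0%, against 18.7%, so the excess was smaller both ways. With overlapping neighbours left out, the shares in the same direction were 26.7% and 22.1%. Those in the opposite direction rose to 14.2% for higher and 12.9% for lower genes, nearer the shares over all genes. Runs of at least 4 neighbours called in the same direction numbered 69 for higher genes, with 322 genes, and 44 for lower genes, with 193 genes. The longest, of 11 genes, lay in the histone cluster. A run of 8 ran from TGFBR2 through STT3B, OSBPL10, GPD1L, CMTM8, CMTM7† and CMTM6† to DYNC1LI1, with log2 fold changes from 0.32 to 4.12 among members with more than 3 counts in both groups. Another ran from HOXA3† to HOXA10†, and another joined SNX11 to HOXB3†, HOXB5†, HOXB6 and HOXB9. The desmosomal run is of DSC2, DSC1, DSG1 and DSG2, then DSG2-AS1†, B4GALT6 and TRAPPC8†, all higher, and it lies beside DSC3, which was lost. This run is on chromosome 18, where the median log2 fold change was 0.20. The rises of DSC2 (0.28) and TRAPPC8 (0.23) were near that median, and the part of the chromosome in this run was not tested. Some members of these runs lost their call when single libraries were left out, with the highest adjusted p at 0.21 for DSC2, 0.11 for TRAPPC8, 0.20 for HOXA3 and 0.11 for HOXB9. DSG1 had 0 counts over the control libraries and 36 over the knockdown libraries and was at least 11.8-fold higher, and DSC1 had 2 counts over the control libraries and 73 over the knockdown libraries, a ratio of 35.8 (95% exact interval 9.55 to 301). Among lower runs, TSPAN13, AGR2, AHR and SNX13 lay together. AGR2, a disulfide isomerase of secretory epithelium, had 16.7, 25.8 and 23.6 CPM in control and 4.27, 2.57 and 3.64 CPM in knockdown, and TSPAN13, a tetraspanin, fell from 89.6 ± 5.45 to 49.2 ± 2.34 CPM. Another held IDUA†, FGFRL1, SPON2 and CTBP1†, and another held KCNMB4, PTPRB† and PTPRR†. PTPRR, a tyrosine phosphatase that acts on MAP kinases, fell from 35.5 ± 2.27 to 8.35 ± 1.41 CPM.

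Promoter sequence was then read for 11711 tested genes with a RefSeq window of 300 bases, 250 before to 50 after the start. A CpG ratio above 0.6, observed over expected from base composition, was found in 79.7% of them, in 82.6% of higher and 79.7% of lower genes. Among genes changed at least 2-fold the share was lower, at 63.2% of 435 higher and 63.8% of 431 lower genes. The largest changes were among genes with low levels, and the part of level in these shares was not tested. The letters CTTCCGG, which ETS factors can bind, stood on either strand in 18.5% of all these windows and in 9.66% and 5.34% of those of genes raised or lowered at least 2-fold. TATAAA stood in 5.82%, 12.9% and 8.35%. Over all 27305 windows of the table the shares were 10.7% and 11.95%. A match describes letters only.

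Gene length and depth moved with the calls. With genes split by genomic length into 5 bins of equal size, the median log2 fold change was 0.07 in the bin of shortest genes and −0.06 in that of the longest, and the share called lower was 7.27% and 24.3%, while the share called higher was 12.999% and 16.6%. The median genomic length was 21539 bases over all tested genes, 80328 over collagens and 64524 over cadherins and protocadherins, against 17694 over proteasome and 11937 over mitochondrial ribosomal protein genes. The part of length in the counts of these lists was not tested. With 5 such bins by mean count, 11.97% of the least and 47.2% of the most deeply covered genes were called.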

How the data were processed

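RNA was sequenced from 9 libraries in 3 groups of 3, grouped by their titles. The deposited values are raw read counts per gene, made by the authors with FastQC, cutadapt, HISAT2 and HTSeq on hg19, per the submitters' processing notes (versions and strand setting not given in the sources used here). Of the reads in each of the 6 tables compared, 40.3 to 42.9% were assigned to 60880 gene entries and 48.8 to 50.7% to no feature. Entries that name no gene stayed out of library sizes and tests.

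Genes were kept with edgeR's filterByExpr (minimum count 10), scaled by TMM and tested with edgeR 4.0.16 (R 4.3.3) by a robust quasi-likelihood fit of all 9 libraries, with the contrast of knockdown minus control and Benjamini-Hochberg adjustment over all tested genes. The scripts were tested on simulated data. Limma 3.58.1, DESeq2 1.42.0 and other filters, scalings and left-out libraries gave 16 alternatives. Replicates of a group differed by more than sampling noise. Intervals and floors cover counting error only.

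Symbols came from a table of gene names (56373 identifiers) or GENCODE v29 (444), and 4063 had none. GENCODE v29 is of another build, so it served for gene classes, chromosomes, lengths, overlaps and order, and promoters came from the RefSeq table. The members and the 105 gene lists were chosen with earlier results of these data known, and patterns that assign genes to lists were corrected after values were seen. Some lists were filled by symbol, so they can hold an antisense RNA, a pseudogene or another gene outside the family. Lists are described by counts and medians with no test. Named genes are UGT2B genes, the 25 most raised and 25 most lowered genes whose groups do not overlap and whose higher group averages 5 CPM or more, the 10 largest gains and losses in CPM, up to 6 called members of each list by adjusted p, members of the 6 longest runs of neighbours per direction, and cell type markers. Of these the text leaves some out, and some items are not reported here.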

Additional observations from a re-analysis of the deposited data

How the results depend on the processing

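The number of genes called was 4858 to 6348 over 15 of the 16 alternatives, against 5899, and leaving out one library gave 4858 to 5422. Requiring a fold above 1.5 left 1141 genes, 574 higher and 567 lower, of which 959 had changed at least 2-fold. Of 172 of the called genes named in the text, 42 lost their call under that requirement, 5 under any other alternative, and 0 reversed. DESeq2 called 5975 genes, 5813 of them shared in the same direction, and total counts without a scaling factor called 2654 higher and 3195 lower. UGT2B28 ranged from −1.455 without knockdown replicate 1 to 0.1636 without control replicate 1 on the log2 scale. With overlapping neighbours left out, the next gene was called in the same direction for 26.657% of higher and 22.102% of lower genes. A CpG ratio above 0.75 was met by 65.076% of all, 68.159% of higher and 65.825% of lower windows, and the ratio above 0.6 by 63.218% and 63.805% of genes raised and lowered at least 2-fold. In 5 bins by gene length, shortest first, no scaling factor moved the medians of the bins to 0.029, −0.0023, −0.0196, −0.0433 and −0.0951, and exonic length gave 0.0635, 0.0835, 0.0407, −0.0158 and −0.0947. The cause of these shifts was not tested. The chromosome 18 median stayed between 0.158 and 0.215 and that of chromosome 21 between −0.213 and −0.144 over all 16 alternatives, which were added for them after their counts were seen. Deviations from the group means correlated between control and knockdown libraries of equal replicate number at 0.0772, 0.0597 and −0.0231. Values this small over all genes do not settle whether replicate numbers pair the libraries. Control replicates 1 and 2 correlated best with their own number and control replicate 3 did not, as a hint from the data and not the design. A replicate block called 6348 genes, 5855 of them shared. Read depth limits genes with few counts, UGT2B28 among them.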
